A study of Mus musculus with 16 samples.

Results

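The ribosomal protein genes were taken as the protein-coding mouse genes whose symbol is Rpl or Rps followed by a number and at most a pair of further letters from a, x, y, l and p. The symbol rule found 77 genes of 21938 protein-coding genes on the chromosomes that held peaks, 47 for the large (60S) subunit and 30 for the small (40S) subunit. It uses names only, so no measured value chose the members, and it leaves out ribosome genes with other names, such as Rplp0 and Rpsa, which were counted apart. Primary macrophages were grown from the bone marrow (BMDMs) of 8 to 12 week old C57Bl6 mice, and ChIP-seq recorded H3K27ac, an acetyl mark on histone H3 that is found where promoters and enhancers are active. The 4 conditions were untreated cells (Control), 100 ng/mL interferon gamma for 1 h (IFNγ), 20 µM of the PARP inhibitor PJ34 (PJ34), and PJ34 given 1 h before IFNγ (IFNγ+PJ34). Each condition had 2 ChIP and 2 input samples, and the authors deposited 1 peak list per condition made from both replicates. The lists therefore carry no replicate error and no read depth, no test was possible, and every difference below is a difference between single lists.

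Ribosomal proteins are assembled with ribosomal RNA into the subunits that translate every mRNA, and their genes are among the most transcribed in any growing cell. Their promoters share a compact design in mammals, with binding sites for ETS-family factors such as GABP, sites for Sp1 and YY1, and a start site inside a run of C and T. That run becomes the 5′ terminal oligopyrimidine (TOP) tract of the mRNA, through which mTORC1 and LARP1 control translation. In macrophages RPL13A is also known for leaving the 60S subunit after IFNγ treatment and joining a complex that silences the translation of inflammatory mRNAs.

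The sequences below show which of these letters stand next to the start of 10 members, each from 100 bases upstream of a RefSeq start to base 10 of the transcript (GRCm38.p6, the mm10 assembly), written 5′ to 3′ on the strand of the gene. Capitals mark the letters searched for on either strand. The ETS-type letters were CCGGAA and the YY1-type letters were ATGGCG. For Sp1 the letters were GGGCGG, for the TATA box TATAAA, and for the E-box CACGTG. The GAS-type letters, named for the gamma-activated site, were searched as TTCNNNGAA. Capitals also mark any run of at least 8 pyrimidines (C or T) lying between 10 bases upstream and base 20 of the transcript. A base may belong to more than 1 match. Rpl19 is shown because its promoter peak ranked highest, Rps18 and Rpl35 for their C and T runs, Rps7 and Rpl37 for their ETS-type matches, Rpl13a for its link to IFNγ, and Rps21 and Rps4x because they ranked low. Rpl39l and Rpl10l are shown because neither had a promoter peak.
Rpl19 (chr11:98026610-98026719, plus strand): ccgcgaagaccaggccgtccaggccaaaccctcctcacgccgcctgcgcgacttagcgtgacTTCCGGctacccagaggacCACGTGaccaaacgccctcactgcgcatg
Rps18 (chr17:33955656-33955765, minus strand): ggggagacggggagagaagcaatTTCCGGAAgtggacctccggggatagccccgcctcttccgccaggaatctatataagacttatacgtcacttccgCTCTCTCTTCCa
Rpl35 (chr2:39005122-39005231, minus strand): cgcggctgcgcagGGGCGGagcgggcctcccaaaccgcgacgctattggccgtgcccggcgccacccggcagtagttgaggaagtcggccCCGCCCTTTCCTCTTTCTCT
Rps7 (chr12:28635944-28636053, minus strand): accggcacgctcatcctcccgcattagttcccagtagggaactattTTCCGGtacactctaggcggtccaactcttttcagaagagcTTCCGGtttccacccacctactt
Rpl37 (chr15:5116513-5116622, plus strand): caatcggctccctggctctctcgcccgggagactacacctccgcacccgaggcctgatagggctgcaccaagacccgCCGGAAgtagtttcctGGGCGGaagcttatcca
Rpl13a (chr7:45128736-45128845, minus strand): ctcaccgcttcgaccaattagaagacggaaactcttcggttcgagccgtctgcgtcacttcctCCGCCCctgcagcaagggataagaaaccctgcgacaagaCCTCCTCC
Rps21 (chr2:180257279-180257388, plus strand): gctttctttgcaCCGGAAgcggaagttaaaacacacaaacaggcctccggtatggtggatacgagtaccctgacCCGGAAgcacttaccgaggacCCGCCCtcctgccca
Rps4x (chrX:102189382-102189491, minus strand): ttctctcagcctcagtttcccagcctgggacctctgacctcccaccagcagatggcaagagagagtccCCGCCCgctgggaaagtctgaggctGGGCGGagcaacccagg
Rpl39l (chr16:10170128-10170237, plus strand): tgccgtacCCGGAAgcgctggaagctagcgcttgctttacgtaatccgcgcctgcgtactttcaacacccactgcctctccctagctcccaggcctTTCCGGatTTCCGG
Rpl10l (chr12:66284392-66284501, minus strand): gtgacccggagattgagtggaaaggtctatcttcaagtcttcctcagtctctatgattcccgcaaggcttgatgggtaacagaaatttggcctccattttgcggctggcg

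A promoter window of 300 bases (250 upstream to 50 downstream of a RefSeq start) was on hand for 58 of the 77 genes and for 16522 protein-coding genes, at 1.21 windows per ribosomal protein gene and 1.22 per gene overall. The ETS-type letters stood in the windows of 31 of the 58 genes (53.4%, exact Clopper-Pearson 95% interval 39.9 to 66.7%), against 21.5% of all protein-coding genes and 35.8% of those with a promoter peak in all 4 lists. The YY1-type letters were found in 19 of 58 (32.8%), against 12.7% and 19.8%. A C and T run at the start was found in 22 of 58 (37.9%, 25.5 to 51.6%), against 13.1% of all protein-coding genes and 13.7% of those with a peak in all 4 lists. These 3 features were thus more frequent in the ribosomal protein windows than in either background, and each of their intervals lay above both. The interval of the YY1-type share was 21.01 to 46.3%. The Sp1-type letters did not follow this order and were in 34 of 58 windows (58.6%), between the 51.0% of all genes and the 70.8% of genes with a peak in all 4 lists. TATA-type letters were in 5 (Rpl22, Rpl36a, Rpl39, Rps2 and Rps28), E-boxes in 6 and GAS-type letters in 3 (Rpl35, Rpl36al and Rpl4), at 8.62%, 10.3% and 5.17%, and for each of these the interval held the share of all genes (14.3%, 9.18% and 9.02%).

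Unmarked members could hold the same letters. Rpl39l holds ETS-type and YY1-type letters and Rpl10l holds YY1-type and Sp1-type letters within their 300 bases, and neither had a promoter peak. Among the 58 genes, the 31 with ETS-type letters had a median score percentile of 87.9 in Control and 85.5 in IFNγ+PJ34, and the 27 without had 90.4 and 83.7. For the YY1-type letters the medians in Control were 92.2 with and 88.2 without. The order of the groups thus differed between motifs and between lists. The intervals given here cover counting error only, and a match is a description of the letters, not of a bound factor.

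**Figure D1:**
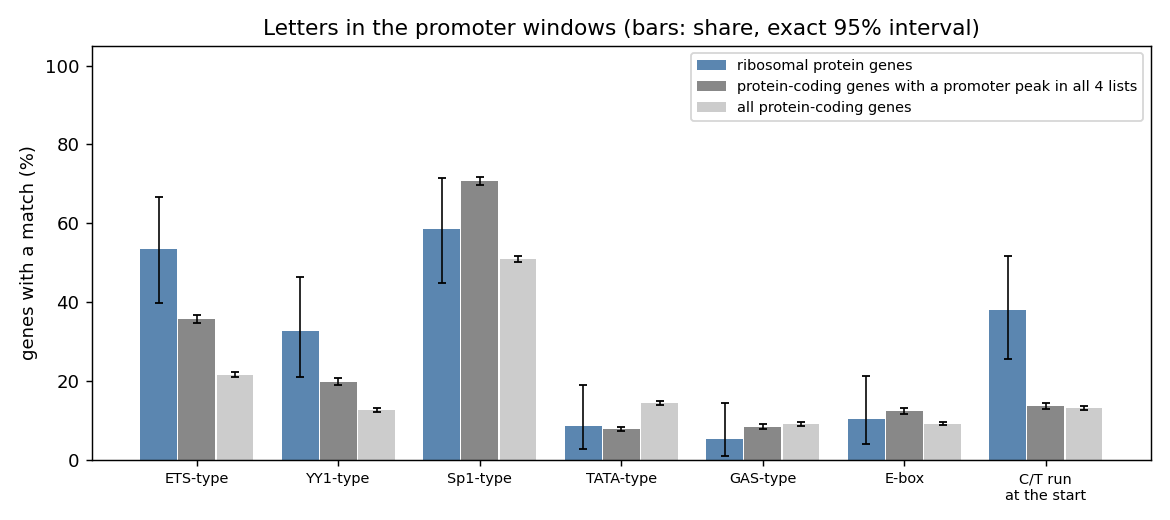
Share of genes (%) whose promoter window holds each set of letters, for 58 ribosomal protein genes, the protein-coding genes with a promoter peak in all 4 lists and all protein-coding genes; error bars are exact 95% intervals. The blue bars stand above both grey bars for the ETS-type and YY1-type letters and the C and T run, and below the dark grey bar for the Sp1-type letters.

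Nearly all ribosomal protein promoters were acetylated in every condition. A gene was said to have a promoter peak where a summit, the highest point of a peak, lay within 1 kb of any of its annotated transcript starts (GENCODE M21). Of the 77 genes, 74 had one in Control (96.1%, 95% interval 89.0 to 99.2%). The number was also 74 in IFNγ, while PJ34 had 72 and IFNγ+PJ34 had 73, and 72 genes (93.5%, 85.5 to 97.9%) had one in all 4 lists. Over all protein-coding genes the share was 49.1% in Control and also in PJ34, against 48% in IFNγ and 48.2% in the IFNγ+PJ34 list, and 45.4% had a peak in all 4. No 2 members shared a best peak in any list. The same cells had a promoter peak at 9 of 10 macrophage marker genes in Control, Spi1 being the exception, and at 6 of 10 in all 4 lists. Of 19 markers of other cell types, including Cd3e, Elane, Gata1 and Col1a1, none had one in Control and only Pecam1 had one in the other 3 lists.

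The 3 genes without a peak in any list are paralogs with restricted expression, Rpl3l in skeletal and heart muscle and Rpl10l and Rpl39l mainly in testis. The nearest summit to Rpl10l (chr12:66283379-66284401) was more than 1090 kb away in each list. At Rpl3l (chr17:24727820-24736143) it was 3.13 kb away in Control and 3.55 kb in the other 3 lists, and at Rpl39l (chr16:10170226-10174911) it lay 4.08 kb away in IFNγ and 3.99 kb in PJ34 but 116 kb in Control and IFNγ+PJ34. The broadly expressed paralogs Rps27l and Rpl36al had a promoter peak in every list. Rps27l, a p53 target, had score percentiles of 91.9, 87.6, 94.3 and 93.4 in Control, IFNγ, PJ34 and IFNγ+PJ34, and Rpl36al, an intronless copy of Rpl36a, had 93.4, 90.8, 92.7 and 90.6.

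For Rpl41 and Rps9 the absence in some lists came from where the summit was placed. Rpl41 (chr10:128548114-128549305), which encodes the shortest ribosomal protein, had a promoter peak in every list but PJ34. In PJ34 a peak of 3074 bp covered its start with a summit 1487 bp away. Rps9 (chr7:3703993-3706897), a 40S protein near the mRNA entry channel, lay at the edge of a broad region that spanned 12977 bp in Control and 10848 bp in IFNγ. In PJ34 and IFNγ+PJ34 the peak over its start was 12781 and 10319 bp wide, with summits 1151 and 2589 bp from the start. When any peak overlapping the window was accepted in place of a summit within it, 74 of the 77 genes had one in all 4 lists. Just inside the limit was the large subunit gene Rpl35. Its summits in Control, IFNγ and PJ34 were 878, 824 and 823 bp downstream of its nearest GENCODE start. That start lies upstream of the RefSeq start used for the sequence of Rpl35 above, so the summits are closer to the RefSeq start.

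Pseudogenes of the family gave a contrast. Ribosomal protein mRNAs have been copied into the genome many times, and 280 annotated copies carry the symbol of a member followed by -ps. Of these, 7 had a promoter peak in Control (2.50%, 1.01 to 5.08%), 6 under either agent alone and 5 under both. Only 3 had one in all 4 lists, 1 of them with a protein-coding start within 1 kb. Reads that fit several copies were not kept by the authors, so a copy that matches its parent closely could lose reads.

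The promoter peaks of ribosomal protein genes were strong in each list but not the strongest. Peaks were ranked by score within their list, with 100 at the top, because the lists differ in their overall enrichment. The median percentile of the members was 90.3 in Control (quartiles 86.7 and 95.3). With IFNγ alone it was 90.8 (86.7 and 93.8), with PJ34 alone 92.3 (87.4 and 94.4) and with both 84.4 (79.9 and 91.0). The medians over all protein-coding genes with a promoter peak were 85.4, 84.1, 86.3 and 81.3. No member fell below percentile 50 in any list, where 8.95% of all promoter peaks did in Control and 11.6% in IFNγ+PJ34. In the top 10% of the Control list there were 38 of 74 members (51.4%), against 36.6% of all promoter peaks. In IFNγ+PJ34 there were 21 of 73 (28.8%), against 29.0%. The lead of the members over other promoters was thus 4.97 percentile points in Control and 3.11 in IFNγ+PJ34, on medians. Between subunits, the median percentile in Control was 89.3 for 44 large subunit genes and 91.9 for 30 small subunit genes.

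**Figure D2:**
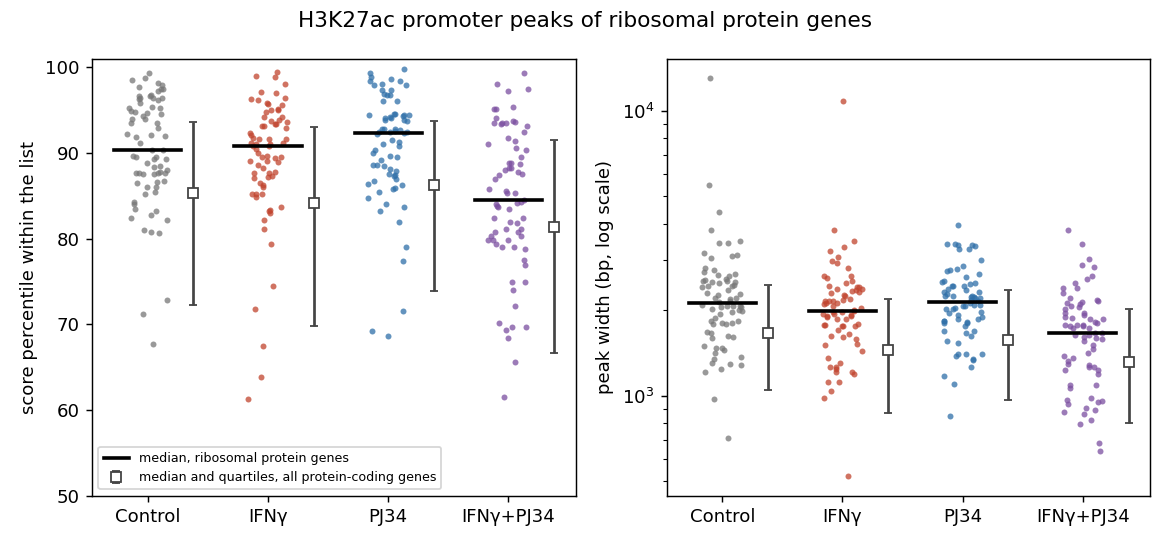
Score percentile (left) and width in bp on a log scale (right) of the promoter peak of each ribosomal protein gene in the 4 lists; points are genes, black lines their medians, and squares with bars the median and quartiles of all protein-coding genes with a promoter peak. The black lines sit above the squares in every list, and the IFNγ+PJ34 points sit lowest in both panels.

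Fold enrichment over the local background, the authors' second measure of peak strength, had a median over the members of 33.8 (Control), 28.7 (IFNγ alone), 32.8 (PJ34 alone) and 20.7 (both agents). The peaks were also wide. In Control their median width was 2107.5 bp where all protein-coding promoters had 1657 bp, in IFNγ 1978.5 against 1447 bp, in PJ34 2135 against 1568 bp and in IFNγ+PJ34 1664 against 1313 bp. In Control 62 members had 1 promoter peak and 12 had 2 or 3, and in IFNγ+PJ34 the numbers were 51 and 22. Over all protein-coding genes with a promoter peak, the upper quartile of the peak number was 1 in Control and 2 in IFNγ+PJ34. The members had the same upper quartiles, so the rise was not particular to them. The narrower peaks and the larger number of divided peaks in IFNγ+PJ34 moved together with the lower percentiles there. Their part in the result was not tested. The median percentile shift from IFNγ to IFNγ+PJ34 was −3.56 for all members with a peak and −1.37 for all promoters. Among genes with a single promoter peak in both lists, it was −3.52 for 46 members and −1.07 for all promoters.

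The 5 members that ranked highest by their median over the 4 lists came from both subunits. Rpl19 (chr11:98026710-98030492), a large subunit protein of a bridge between the subunits, had percentiles of 99.3, 99.4, 99.8 and 99.4 in Control, IFNγ, PJ34 and IFNγ+PJ34 (the order kept below), the narrowest range of any member at 0.535 points. Percentiles have little room to rise there, and its fold enrichments varied more, at 41.7, 50.2, 76.2 and 42.3. Rpl21 (chr5:146832890-146837032) had percentiles of 98.7, 99.0, 99.3 and 98.0. Both stayed near the top of every list. Rpl7 (chr1:16101295-16104662), a 60S protein that binds RNA, had 97.5, 95.8, 98.0 and 97.5. Rps18 (chr17:33951999-33956001), in the head of the 40S subunit, had 97.7, 93.1, 98.4 and 97.2. Rpl24 (chr16:55966275-55971435) had 96.6, 98.9, 97.9 and 76.9. Rpl24 therefore belonged to the strongest promoters in 3 lists and to the weaker members in IFNγ+PJ34.

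The lowest ranks were held by X-linked genes. Rps4x (chrX:102184941-102189394), a 40S protein, had percentiles of 72.8, 63.8, 69.2 and 61.6 in the same order of lists, with fold enrichments of 15.9, 8.77, 10.8 and 8.44. Rpl39 (chrX:37082520-37085402), a small protein at the exit tunnel, had percentiles of 67.7, 67.4, 71.6 and 69.6. Rpl36a (chrX:134585654-134588062) had 71.2, 61.3, 68.6 and 74.9, with peaks of only 523 to 848 bp. In Control and in IFNγ it had 2 promoter peaks, and the values are those of the higher-scoring one. These 3 genes were the last 3 in order of the 72 genes with a peak in all 4 lists. The other X-linked member, Rpl10 (chrX:74270812-74273135), needed late in 60S assembly, had 94.9, 92.3, 92.7 and 91.4 and so did not share the low rank. X-linked promoters were lower as a class. Over all protein-coding genes the median percentile in Control was 75.9 for 307 X-linked promoters and 85.7 for 10465 autosomal ones, and in IFNγ+PJ34 it was 69.6 and 81.8. The part of X linkage in the ranks of the 3 genes was not tested. The next in order were the autosomal genes Rpl12 (chr2:32961559-32965345) of the ribosomal stalk base, at 80.8, 71.8, 79.0 and 72.1, and Rps21 (chr2:180257377-180258445), at 81.0, 74.4, 77.4 and 68.4. Apart from those of Rpl39 and Rpl12, the ranges of these 5 genes over the lists overlapped, so the order among them was not settled.

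**Figure D3:**
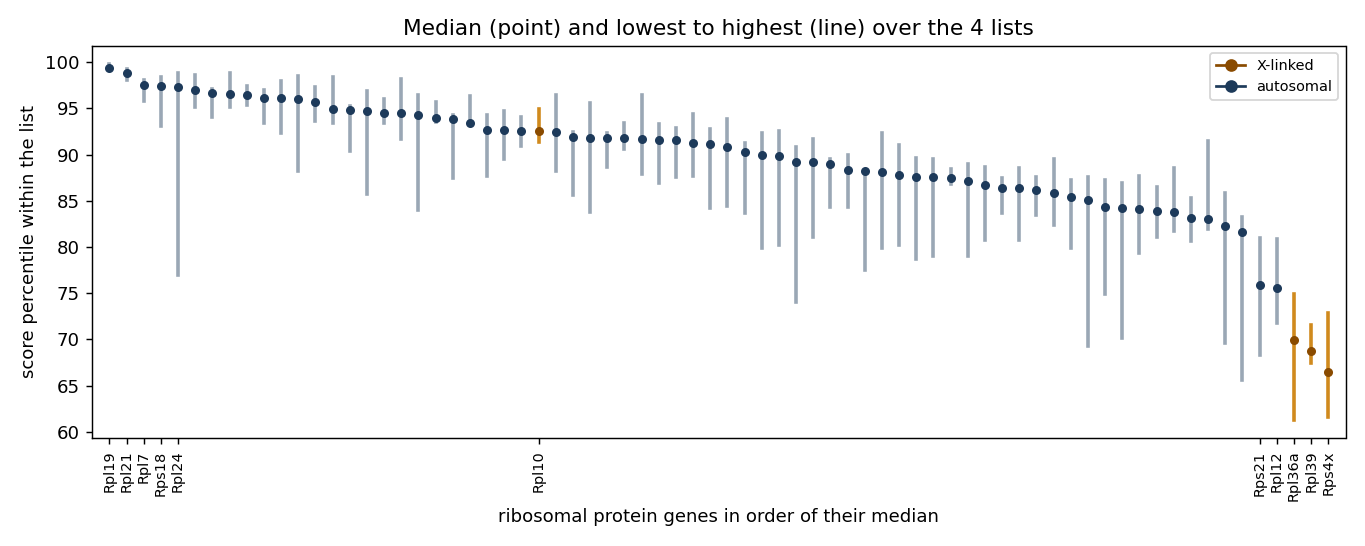
Score percentile of the 72 ribosomal protein genes with a promoter peak in all 4 lists, in order of their median; points are medians over the lists, lines run from the lowest to the highest list, and X-linked genes are in brown; the axis names the 5 highest, the 5 lowest and Rpl10. Rpl36a, Rpl39 and Rps4x stand at the low end while Rpl10 stands in the upper part, and Rpl24 has the longest line.

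The order of the members was similar between lists, though less so than that of all genes in every pair but PJ34 and IFNγ+PJ34. Over the 72 genes, Spearman's rho between lists was 0.88 for Control and IFNγ, 0.88 for Control and PJ34, and 0.79 for Control and IFNγ+PJ34, lowest at 0.74 for IFNγ and IFNγ+PJ34. Over 9953 protein-coding genes the values for these pairs, in the same order, were 0.90, 0.93, 0.85 and 0.86. For IFNγ and PJ34 rho was 0.87 over the members and 0.93 over all genes. For PJ34 and IFNγ+PJ34 it was 0.83 and 0.81. These are descriptions across genes, which are not replicates and share their 2 lists. The range of a gene's percentile over the 4 lists had a median of 6.89 points for the members and 9.39 for 9953 protein-coding genes with a peak in all 4 lists. The range was at most 10 points for 50 of 72 members (69.4%) and for 53.1% of all genes. By their medians the members ranked higher in each list, where percentiles have less room to rise, and promoters of equal rank were not compared. In fold enrichment the ratio of the highest to the lowest list had a median of 1.94 for the members and 1.96 for all genes, so by this measure the members varied as much as other promoters. The lowest of the 4 percentiles was that of IFNγ+PJ34 in 57 members (79.2%), against 52.1% of all genes.

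To compare lists, the log2 ratio of fold enrichment of each gene was centred on the median over all protein-coding promoters, since that median itself differed by −0.41 (IFNγ against Control), −0.10 (PJ34 against Control), −0.06 (IFNγ+PJ34 against IFNγ) and −0.37 (IFNγ+PJ34 against PJ34). The changes below are relative to those shifts, and a gene was counted when it lay past 1.5-fold in either direction.

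With IFNγ alone the ribosomal protein promoters moved little as a set. Relative to all promoters the median centred change was 0.08 over 74 members, from −0.89 to 1.39. Past 1.5-fold there were 14 members higher (18.9%) and 3 lower (4.05%), against 15.7% and 16.4% of all promoters. The share of higher members was thus near the background and the share of lower members below it. The median percentile shift was −0.28 points for the members and −1.37 for all promoters. Without centring the direction of the median flipped to −0.33. For scale, 7 of 9 IFNγ-response genes with a peak in both lists were past 1.5-fold higher and none lower. Their median percentile shift was 7.59 points, and Cxcl10, a chemokine induced by IFNγ, went from 50.7 in Control to 90.9 in IFNγ.

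The 3 members furthest up with IFNγ were Rps2, Rpl11 and Rpl13. Rps2, a 40S protein at the mRNA entry channel, had fold enrichments, in the same order of lists, of 16.6, 32.6, 42.1 and 21.3. Rpl11, which binds 5S RNA with Rpl5 and can restrain Mdm2, had 19.1, 34.8, 36.5 and 13.3. Rpl13 had 12.7, 20.1, 31.3 and 20.7. All of them were lowest or next to lowest in Control and highest in PJ34, where no IFNγ was given. Among the 3 furthest down were Rps29, with 62.1 in Control and 25.1 in IFNγ, and Rpl14, with 51.1 and 24.6. Both were among the strongest members in Control.

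With PJ34 alone, 12 of 72 members (16.7%) were past 1.5-fold higher and 9 (12.5%) lower, against 12.4% and 14.9% of all promoters. The median centred change was −0.06 and the median percentile shift 0.32 points, against 0.82 for all promoters. Neither share stood far from the background. Rps2 (1.45), Rpl13 (1.401) and Rpl22 (1.33) had the highest centred log2 changes. Rpl22, a 60S protein needed for T-cell development, had fold enrichments of 16.3, 20.3, 38.2 and 20.3 in Control, IFNγ, PJ34 and IFNγ+PJ34, and its summit moved from 314 bp upstream of the start in Control to 194 bp downstream in PJ34. Near the low end was the 40S gene Rps13 (−1.11), with fold enrichments of 41.8, 41.1, 18.04 and 15.5. It was thus about as high in IFNγ as in Control and lower in each list with PJ34.

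The members lay furthest below other promoters when IFNγ+PJ34 was set against IFNγ. Of 73 members, 21 (28.8%) were past 1.5-fold lower and 4 (5.48%) higher, against 17.8% and 19.8% of all promoters. The median centred change was −0.31, with 49 members below 0 and 24 above. Percentiles moved the same way, with 60 members lower and 13 higher and a median shift of −3.56 points, against −1.37 for all promoters, of which 60.3% were lower. Among the 73 members, 13 lost at least 10 points and 1 gained as many, against 15.3% and 9.86% of all promoters, so the share of large losses was near the background and that of large gains below it.

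Rpl24 differed most. Its fold enrichment was 55.4 in the untreated cells, 68.2 with IFNγ, 54.1 with PJ34 and 16.3 with both, a centred log2 change of −2.00, and its width was 2649, 3490, 3405 and 1414 bp. Its summit stayed between 440 and 483 bp downstream of the start. Rpl24 had 1 promoter peak in Control, IFNγ and PJ34 but 2 in IFNγ+PJ34, where the values are those of the higher-scoring one. Rps13 (−1.35) and Rpl11 (−1.33) followed. The members that were higher past 1.5-fold were Rpl36a (1.02), Rpl27a (0.76), Rps29 (0.62) and Rps18. For Rpl36a the IFNγ value is that of the higher-scoring of 2 promoter peaks. Rpl27a had fold enrichments of 42.1, 22.3, 48.7 and 36.1, and Rps29 had 62.1, 25.1, 36.8 and 36.9, so both were lowest in IFNγ alone.

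Between IFNγ+PJ34 and PJ34 alone, 16 of 72 members (22.2%) were past 1.5-fold lower and 3 (4.17%) higher, against 19% and 20.3% of all promoters. The median centred change was −0.14. Of the members, 70 had a lower percentile and 2 a higher one, Rpl35 and Rpl36a, where 74.2% of all promoters had a lower one. The median shift was −4.91 points, near the −4.38 of all promoters. By fold enrichment the share of lower members was close to the background and that of higher members below it. Rpl18 (−1.44), Rpl24 (−1.36) and Rps16 (−1.25) were the lowest, and Rpl36a (0.94) and Rps21 (0.63) were among the 3 highest. Rpl18 had fold enrichments of 67.0, 40.5, 66.7 and 18.99, and Rps16 had 37.4, 30.1, 41.6 and 13.5. This comparison shares the IFNγ+PJ34 list with the previous one, so the low values of Rpl24 in both are not independent.

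**Figure D4:**
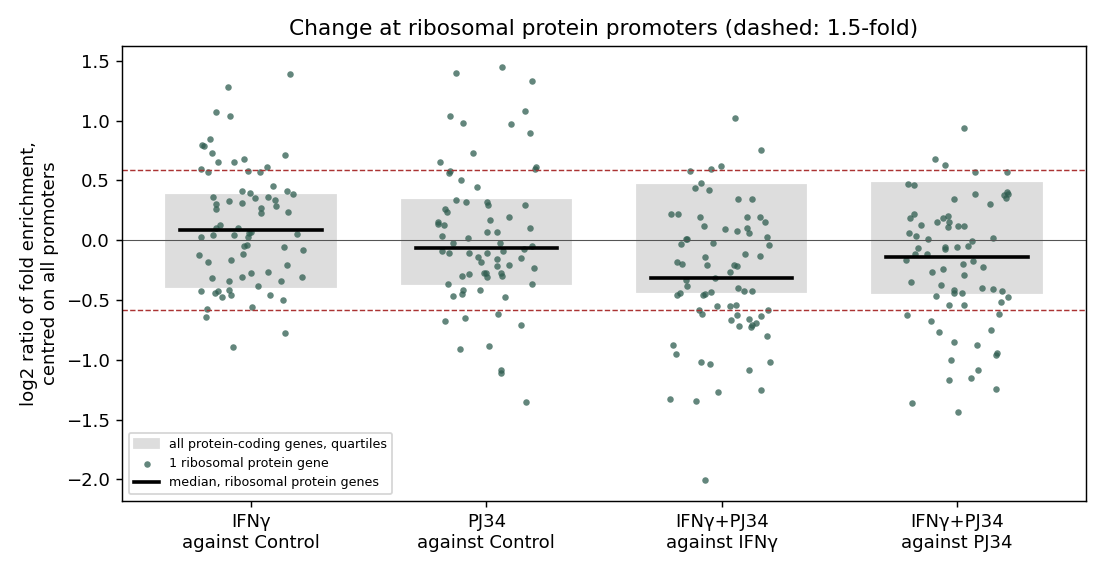
Log2 ratio of fold enrichment between lists, centred on the median over all protein-coding promoters, for each ribosomal protein gene (points) with their median (black line); grey boxes are the quartiles of all protein-coding promoters and dashed lines mark 1.5-fold. The points sit mostly inside or near the grey box, their median is lowest for IFNγ+PJ34 against IFNγ at −0.31, and Rpl24 is the point at −2.00.

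Several members are known for roles beyond the ribosome. Rpl13a (chr7:45125558-45128761) had percentiles of 94.0, 91.2, 94.1 and 91.0 in Control, IFNγ, PJ34 and IFNγ+PJ34, with centred changes of −0.31 with IFNγ and −0.02 with PJ34. Rpl5 (chr5:107900502-107909005), the partner of Rpl11, had 86.6, 89.5, 92.4 and 79.9. Rpl11 (chr4:136028265-136053428) had 87.8, 92.1, 92.4 and 79.9. Both were highest in PJ34 and lowest in IFNγ+PJ34. Rps6 (chr4:86854660-86857412), the substrate of S6 kinases, had 90.3, 92.9, 92.7 and 87.6. Rps3 (chr7:99477896-99483738), also known from DNA repair and NF-κB complexes, had 84.3, 87.8, 89.98 and 88.8, and was lowest in Control. Rps27a (chr11:29545846-29548109), which is made as a fusion with ubiquitin, had 96.7, 96.3, 98.8 and 95.1.

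The genes mutated in Diamond-Blackfan anaemia and lost in the 5q- syndrome ranked high. Rps19 (chr7:24884371-24889806) had percentiles of 97.4, 96.1, 96.7 and 95.4, Rps26 (chr10:128624534-128626747) had 97.2, 94.2, 97.3 and 93.6, and Rps14 had 97.9, 94.99, 97.3 and 92.4. All 3 stayed above percentile 90 in every list. Rpl38 (chr11:114668524-114672331), known for the translation of Hox mRNAs, had 87.6, 86.04, 84.1 and 69.3, and Rpl23a (chr11:78180932-78183584), at the exit of the nascent chain, had 89.2, 89.1, 90.8 and 74.0. Both lay more than 14 points lower in IFNγ+PJ34 than in any other list.

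Summits lay mostly just inside the gene. In Control 55 of 74 members (74.3%) had their summit downstream of the nearest annotated start and 19 upstream, and 44 (59.5%) had it between 100 and 500 bp downstream. The shares over all protein-coding genes were 73.5% and 60.2%, so the members did not stand apart in this. The summit fell in an intron of the member in 41 of 74 cases, in a UTR exon in 15, in a coding exon in 8 and upstream of the gene in 10. The median position was 181.5 bp downstream in Control and 198.5, 195 and 142 bp in the other lists, IFNγ+PJ34 being the last. Over the 72 genes with a peak in all 4 lists, the summit was downstream in every list for 47, upstream in every list for 15 and on both sides for 10. Its position varied by a median of 66 bp between lists, and by at most 50 bp in 32 genes. The upstream group held Rpl19, Rpl7, Rps18, Rps14, Rpl18, Rpl36a and Rps2 among others.

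**Figure D5:**
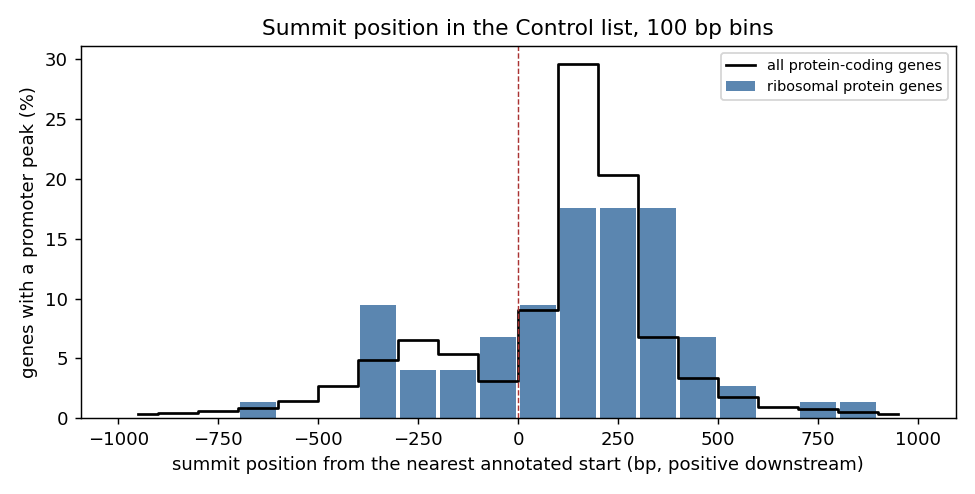
Position of the promoter peak summit in Control, in bp from the nearest annotated start with positive values downstream, as the percent of genes in each 100 bp bin; bars are the 74 ribosomal protein genes with a promoter peak and the line is all protein-coding genes. Both are highest downstream of the start, and the bars from 100 to 400 bp are level at 17.6% where the line is highest from 100 to 200 bp at 29.6%.

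Some members face another gene. An opposite-strand protein-coding start lay within 1 kb of the start of 14 of the 77 genes, among them Rpl9 with Lias, Rps18 with Vps52, Rpl35a with Iqcg and Rps28 with Ndufa7. The H3K27ac of these promoters cannot be assigned to 1 of the 2 genes. Summits lay upstream of the member in 8 of these 14 in Control (57.1%) and in 11 of the 60 other members with a peak (18.3%). Their median percentile was 94.98 in Control and 89.6 in IFNγ+PJ34, against 89.4 and 83.8 for the others, and their median width in Control was 2568 bp against 2059 bp. The paired promoters thus had stronger and wider peaks in both lists, and both sets ranked lower in IFNγ+PJ34 by a similar amount. In all, 27 members host 52 annotated snoRNA genes in their introns, up to 5 in Rpl4 and 4 in Rpl13a. All 27 had a promoter peak in every list, and their median percentile in Control was 91.1, against 89.5 for the members without a snoRNA.

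Other genes of the translation machinery were counted by the same rules. The 10 ribosome genes outside the symbol rule, such as Rplp0, Rpsa and Fau, all had a promoter peak in every list, with a median percentile of 94.2 in Control and 86.3 in IFNγ+PJ34. All 19 translation factors and all 16 ribosome biogenesis genes did too, at 97.0 and 87.3 in Control. Mitochondrial ribosomal proteins had one in all 4 lists for 76 of 78 genes and proteasome subunits for 37 of 39. The cytosolic ribosomal protein genes, at 90.3, ranked above the mitochondrial set at 83.1 in Control and near the proteasome set at 91.2. In IFNγ+PJ34 against IFNγ, the members past 1.5-fold lower were 5 of 10 of the ribosome genes outside the rule, 11 of 19 translation factors and 15 of 37 proteasome subunits, but 14 of 78 mitochondrial ribosomal protein genes and 2 of 16 biogenesis genes, beside 17.8% of all promoters. The median percentile shifts in that comparison were −5.24, −2.82, −5.11, −0.23 and −3.36 points in the same order. A lower median was therefore not particular to the ribosomal protein genes, and no test of the difference between sets was possible.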

How the data were processed

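H3K27ac ChIP and input libraries of BMDMs (2 samples each per condition) were processed by the authors, who mapped the reads with Bowtie to mm10, kept those with a unique position, called relaxed peaks with MACS at a p-value of 0.01 and kept the peaks found in both replicates. The deposited lists give per peak a score (10 to 1000, linear in −log10 p), a fold enrichment (a ratio to local background), −log10 p-values and −log10 q-values, and a summit offset, none of which was recomputed. The lists held 43533 (Control), 40708 (IFNγ), 44090 (PJ34) and 42960 (IFNγ+PJ34) peaks. Their read depth is unknown, so stronger enrichment and deeper sequencing cannot be told apart.

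Starts were those of GENCODE M21 basic transcripts. Where several summits lay within 1 kb of a start, the peak with the highest −log10 p was used. Percentiles are mid-ranks of the score in a list. Scripts ran in Python 3.11.15 with pandas 2.3.3 and scipy 1.17.1 and were tested on simulated peaks. Groups came from the sample titles. Genes described in full were the members lacking a peak, the 5 highest and 5 lowest ranks, the 3 largest changes each way per comparison, and members with known other roles. A few genes that these rules name are not reported here. The members were found by symbol, but the choice of this gene family and of the lists of genes was made with earlier results of these data known. Alternatives for the window, start sites, overlap, q threshold, ranking and list length were run. The 8 input samples have no list of their own.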

Additional observations from a re-analysis of the deposited data

Results flagged for a closer look

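The IFNγ effect on ribosomal protein promoters had medians of opposite sign without and with PJ34 by centred fold enrichment. The median centred log2 change in fold enrichment was 0.083 for IFNγ against Control and −0.14 for IFNγ+PJ34 against PJ34, comparisons that share no list. Over genes, the 95% intervals of these medians were −0.05 to 0.30 and −0.37 to 0.01. Genes are not replicates, so these intervals give no error of the IFNγ effect. The median percentile shifts were both negative, at −0.28 and −4.91 points. Of 72 genes in both, 29 were above all promoters without PJ34 and below them with it, 14 the reverse, 14 above in both and 15 below in both. Through the centring, 50% of all promoters lay above 0 in each comparison. The same counts over all promoters were not made, so these do not set the members apart. The difference was not tested, since each condition has 1 list, and without centring both medians were negative, at −0.33 and −0.51.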

How the results depend on the processing

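The number of ribosomal protein genes with a promoter peak in all 4 lists was 72. It ranged from 66 (summit within 500 bp) to 74 (any overlap with the window), with 73 at 2 kb and 68 from the outermost 5′ end. It was 72 both at q under 0.01 and among the 50% of peaks with the higher scores. The last filter could not change it, since no member fell below percentile 50 in any list. A repeated median was taken as unchanged within the 95% interval of the main median over genes, and a count within 1.5 times. Of 126 repeated medians and counts of genes with a peak, 123 were unchanged and 3 were not. Those 3 came from leaving out the centring, an alternative added after seeing the data, as were autosomes alone, genes with 1 peak and −log10 p in place of fold enrichment. The median change was then −0.33 for IFNγ against Control, a reversed sign, −0.17 for PJ34 against Control and −0.51 for IFNγ+PJ34 against PJ34. This follows from the centring itself, since the median of all promoters differed between lists. Of 64 repeated counts of members past 1.5-fold, 8 moved by more than 1.5 times. Of these, 5 came from leaving out the centring and 3 from keeping genes with 1 peak in both lists, where fewer genes were compared. With those genes 2 of 46 members were higher for IFNγ+PJ34 against IFNγ, and 0 of 45 were higher and 9 lower for IFNγ+PJ34 against PJ34. Without centring, 4 members were past 1.5-fold higher and 23 lower for IFNγ against Control, 0 and 33 for IFNγ+PJ34 against PJ34, and 2 were higher for IFNγ+PJ34 against IFNγ. With lists of equal length the median shift for IFNγ against Control was 0.28 in place of −0.28, inside its interval of −1.55 to 0.31. The members' median percentile was above that of all promoters in each of 11 settings in every list, by 0.88 to 3.55 points in IFNγ+PJ34. No paired analysis was possible because the authors merged both replicates into 1 list per condition, and no replicate could be left out for the same reason. Differences of a few percentile points have no error estimate here.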
